A study of Mus musculus with 11 samples.

Results

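The fatty acid transport proteins (Slc27a genes) and the long-chain acyl-CoA synthetases (Acsl genes) were examined in classical dendritic cells (cDCs) of mouse spleen. The 8 genes considered were Slc27a1, Slc27a2, Slc27a3, Slc27a4, Acsl1, Acsl3, Acsl4 and Acsl5, named as a family, and each was to be read from the probe set chosen by its mean level (the highest over the 3 groups) among those with 1 gene symbol. Of these 8 genes, 6 had such a probe set, out of 19938 genes in all. Each of the 6 had 1 such probe set, so the levels decided nothing about which probe set was used. Acsl1 was matched to no probe set through the annotation used, and the probe set of Acsl3 was shared with other genes, so both were not analysed here. The family was taken up with the differences of Slc27a2 already known, and the tests on that gene are therefore a description and no independent support.

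Expression was measured on 11 Affymetrix arrays of cDCs sorted by flow cytometry from spleens of C57BL/6 mice. CD172a+ cDCs labelled Zeb2-deficient came from Zeb2 fl/fl mice carrying the CD11c-Cre transgene (4 arrays), which deletes floxed DNA in cells that express CD11c, dendritic cells and some other myeloid cells among them. Control CD24+ cDCs (3 arrays) and control CD172a+ cDCs (4 arrays) came from mice that carried floxed Zeb2 but no Cre. All groups therefore shared the floxed allele, and since Cre was present in 1 group alone, an effect of the transgene and loss of Zeb2 cannot be told apart. Nothing in the labels states that replicates were separate animals, so every p-value measures the spread between these arrays, part or all of which may be technical. Values are log2 signals per probe set, compared between groups but not between single genes. Where a gene is placed against the median of all genes, this is only a rough guide to its level.

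Fatty acids enter cells through transport proteins and are held there by being joined to coenzyme A. Slc27a proteins combine uptake with acyl-CoA synthetase activity, and several act mainly on very long chains. Acsl enzymes activate long-chain fatty acids and pass them to beta-oxidation, phospholipids or triglycerides. In dendritic cells, lipid handling is known to differ between subsets and to bear on antigen presentation.

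Slc27a2, the very long-chain acyl-CoA synthetase of peroxisomes and endoplasmic reticulum, was the member that differed between all 3 groups, and its promoter is shown for that reason. The upstream bases come from RefSeq (GRCm38.p6), chr2:126552774-126553023 on the + strand. All 8 genes had an entry in that table, with 11 promoters of 300 bases in all. Capitals mark 2 motifs searched on both strands, which do not overlap here. The first is CACCTG, which reads as CAGGTG when it lies on the opposite strand, letters that Zeb factors are known to bind. The second is AGGTCA, which reads as TGACCT when it lies on the opposite strand, the core letters of many nuclear receptor sites, those of the PPAR regulators of fatty acid genes among them. A CACCTG window of Slc27a1, the fatty acid transporter of muscle and fat, stands beside it for comparison (chr8:71569546-71569575, + strand).
Slc27a2 upstream: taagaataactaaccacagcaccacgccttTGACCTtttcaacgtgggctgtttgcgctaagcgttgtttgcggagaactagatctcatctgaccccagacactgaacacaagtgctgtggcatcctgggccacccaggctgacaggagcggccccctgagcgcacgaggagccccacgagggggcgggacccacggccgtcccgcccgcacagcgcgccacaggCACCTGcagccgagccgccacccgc
Slc27a1 window: ccccgccttcagCACCTGcttgttttcacc

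In Slc27a2 the CACCTG match begins at position -25 relative to the annotated start and the TGACCT match at position -220, and 64% of the 250 bases are G or C. CACCTG was found in promoters of 3 of the 8 genes (Slc27a1, Slc27a2 and Acsl1), against 22.6% of all 27025 genes in the table, and it occurs in 6640 of all 32851 promoters of this length (20.2%). AGGTCA was found in 1 of the 8 genes, Slc27a2, against 18.1% of all genes, and occurs in 5340 promoters (16.3%). These are matches of letters and not measured binding sites.

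Zeb2 itself was read first as a check of the labels. Its probe set gave 8.52, 8.32, 9.07 and 9.24 in CD172a+ cDCs labelled Zeb2-deficient, 5.19, 5.08 and 5.52 in control CD24+ cDCs, and 8.23, 8.23, 8.26 and 8.61 in control CD172a+ cDCs. Zeb2 was thus not lower in the group labelled deficient (difference 0.45, limma adjusted p = 0.998). Whether this probe set covers the deleted stretch is not stated in the labels or files, and it checks little about the deletion. Every direction given for that group rests on its label.

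Facts of the whole set of arrays frame the values below. The second principal component (34.2% of the variance over all genes) divided the arrays into 2 sets that cross the groups, with replicates 1 and 2 of both CD172a+ groups and CD24+ replicate 1 in set 1, and the other arrays in set 2. The labels name no such batch, and the sets were found in the data. They do follow the order in which the samples are listed, with all arrays of set 1 before those of set 2. Because the sets were drawn from the same values that are tested, a fit blocked on them can lower the remaining spread. Its p-values may therefore be too small, and its counts of calls too high. Splenic macrophage markers (14 genes) averaged 5.08 to 5.28 per array in set 1 and 5.69 to 6.54 in set 2. The sorted subsets carried their defining genes: 9 of 10 cDC1 markers were higher, and 9 of 10 cDC2 markers lower, in control CD24+ than in control CD172a+ cDCs, Cd24a and Sirpa (CD172a), the sorted markers, among them. All 9 measured T and NK cell markers and all 8 neutrophil markers lay under the median of all genes in every group mean. Of 9 monocyte markers, 3 were lower in control CD24+ than in control CD172a+ cDCs (Csf1r, Adgre4 and Ace) and 0 higher. With the array set as a block, 4 were lower and 2 higher. Of the 14 macrophage markers, 0 were called without that block, and 3 were lower and 0 higher with it. The part of such cells in the differences between the subsets was not tested.

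Slc27a2 (probe set 10475653) read 6.58, 6.27, 6.46 and 6.68 in CD172a+ cDCs labelled Zeb2-deficient, 4.11, 4.10 and 3.94 in control CD24+ cDCs, and 5.64, 5.64, 5.64 and 5.46 in control CD172a+ cDCs. No array of one group reached into another. The order from high to low was labelled Zeb2-deficient CD172a+, control CD172a+, control CD24+, an order without overlap that 27 of all 19938 genes had (0.135%). A wider range of the 3 group means than that of Slc27a2 (2.44) was seen in 0.677% of genes.

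Slc27a2 averaged 6.50 ± 0.17 in CD172a+ cDCs labelled Zeb2-deficient and 5.60 ± 0.09 in control CD172a+ cDCs (SD, n = 4 each). The gene rose by 0.90 on the log2 scale (SE 0.10, 95% interval 0.68 to 1.12), or 1.87-fold, with limma adjusted p = 0.00894. It was 1 of 6 measured members called in this comparison, in which 0.0502% of all genes were called (10 genes, 8 or 0.0401% higher and 2 or 0.01% lower), and the 1 of 6 whose groups did not overlap, against 2.1% of all genes. The difference was 0.78 within array set 1 and 1.02 within array set 2. With the replicate number as a block, adjusted p was 0.0361 and 26 genes were called. Blocking on the array set gave an adjusted p of 0.00275 and called 29 genes (0.145%). A fit to these 2 groups alone ended the call (adjusted p = 0.0617, 5 genes called).

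Some genes listed as markers of other cells differed in the same comparison. The median difference was 0.07 over the B cell list and 0.06 over the plasmacytoid DC list, whose genes went in both directions. It was -0.79 over the monocyte list, against 0.01 for all genes. B cell markers (9 measured) averaged 5.53 to 5.83 per array in labelled Zeb2-deficient CD172a+ cDCs and 5.02 to 5.33 in control CD172a+ cDCs. Of these 9, Fcer2a (CD23) was called higher, by 2.05. Ms4a1 (CD20) was 2.02 above control without overlap and passed with the array set blocked (limma adjusted p = 0.135 without and 0.00201 with the block), and 7 passed in neither fit, while Cd79a, Pax5, Ebf1 and Cr2 lay under the median of all genes in both groups. Plasmacytoid DC markers (8 measured) averaged 6.41 to 6.57 in labelled Zeb2-deficient and 6.05 to 6.37 in control CD172a+ cDCs, with Cox6a2 called higher by 2.09 and Pacsin1 and Cd209d under the median in both groups. Monocyte markers (9 measured) averaged 7.10 to 7.24 in labelled Zeb2-deficient and 7.78 to 7.89 in control CD172a+ cDCs, with Lyz2 (lysozyme) called lower, a difference of -1.66. Csf1r, the receptor of the macrophage growth factor, differed by -0.94 and passed once the array set was blocked (adjusted p = 0.129 without and 0.0304 with the block). In control CD24+ cDCs, Lyz2 averaged 10.96 and Csf1r 5.70, against 10.82 and 8.42 in control CD172a+ cDCs. Lyz2 was thus about as high in the other cDC subset, and whether its signal came from cDCs or other cells was not tested. The part of B cells, plasmacytoid DCs and monocytes in the Slc27a2 difference was not tested. In sorted bulk samples, fewer cells of a type and less RNA per cell cannot be told apart.

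Between the control subsets, Slc27a2 averaged 4.05 in CD24+ cDCs, with an SD of 0.09 over 3 arrays, and 5.60 in CD172a+ cDCs, with an SD of 0.09 over 4 arrays. It fell by 1.54 on the log2 scale (SE 0.11, 95% interval -1.78 to -1.30), which is 2.91-fold lower in CD24+ cDCs (limma adjusted p = 6.42e-06). It was 1 of 6 members called, against 6.41% of all genes (3.25% higher and 3.16% lower), and 1 of 6 without overlap, against 14.6% of all genes. The difference was -1.53 within each array set. The CD24+ mean lay under the median of all gene means (5.49), and RMA shrinks differences near background, so the fold is no exact ratio.

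CD172a+ cDCs labelled Zeb2-deficient exceeded control CD24+ cDCs in Slc27a2 by 2.44 (SE 0.11, 95% interval 2.20 to 2.68), or 5.44-fold (limma adjusted p = 2.32e-07). This was again 1 of 6 members called, in a comparison that called 7.17% of all genes (3.25% higher and 3.92% lower), and 1 of 6 without overlap, against 17.9% of all genes. The difference was 2.31 in array set 1 and 2.54 in array set 2. The 3 comparisons share arrays and are given side by side, not as separate evidence.

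**Figure D1:**
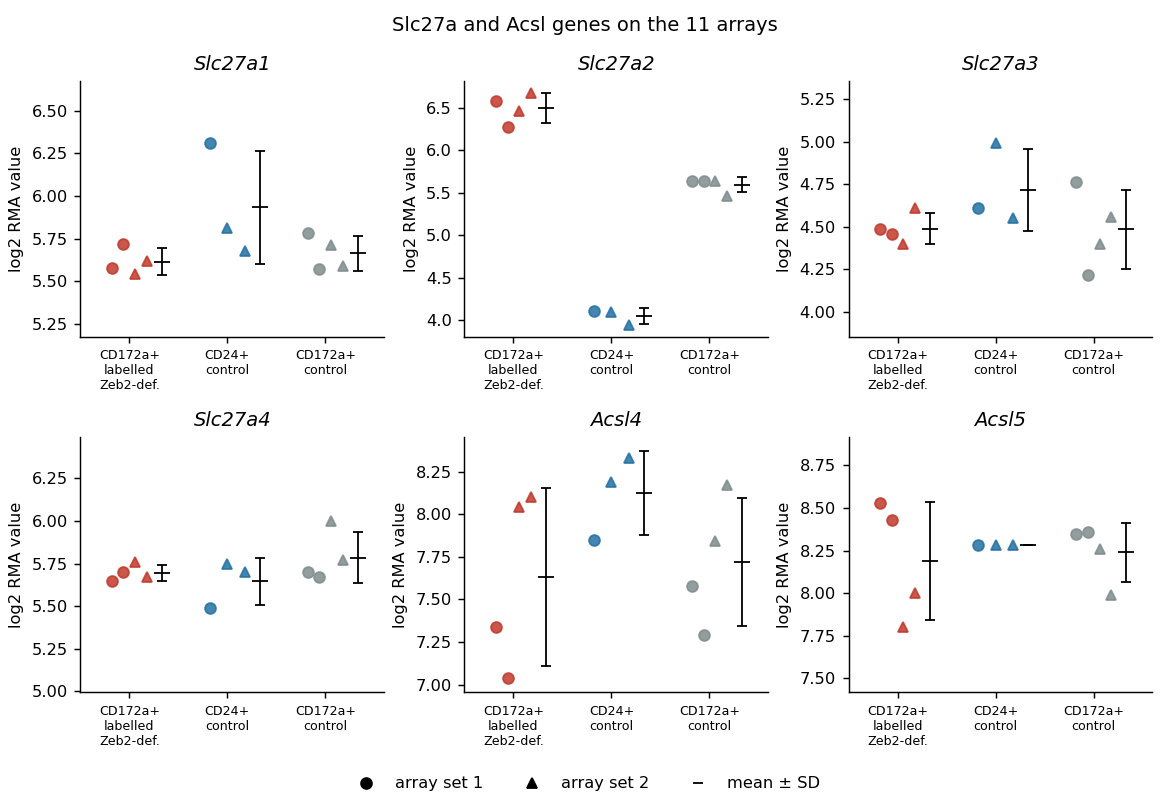
Log2 RMA value of each measured Slc27a and Acsl gene (one panel per gene, each with its own vertical axis) on the 11 arrays, by group. Circles are arrays of set 1, triangles arrays of set 2, and bars the mean ± SD. Slc27a2 shows 3 separate groups, while the Acsl4 arrays of set 1 lie below those of set 2 within every group.

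The other Slc27a genes passed the test in none of the 3 comparisons. Slc27a1 (probe set 10572647) read 5.58, 5.72, 5.54 and 5.62 in labelled Zeb2-deficient CD172a+ cDCs, 6.31, 5.81 and 5.68 in control CD24+ cDCs, and 5.78, 5.57, 5.71 and 5.59 in control CD172a+ cDCs. One CD24+ array, replicate 1, stood above all other arrays, and the groups otherwise overlapped. The CD24+ mean of 5.94 ± 0.33 (SD, n = 3) differed from the control CD172a+ mean of 5.66 ± 0.10 (SD, n = 4) by 0.28 (SE 0.14, 95% interval -0.03 to 0.58, limma adjusted p = 0.389). This difference was 0.64 in array set 1, which holds that array, and 0.10 in set 2, and it was 0.09 without the array. Against control CD172a+ cDCs, the labelled Zeb2-deficient cells differed by -0.04 (95% interval -0.33 to 0.24), and against control CD24+ cDCs by -0.32 (95% interval -0.63 to -0.01, limma adjusted p = 0.252).

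Slc27a3 encodes a family member with acyl-CoA synthetase activity. Its probe set (10499766) read 4.49, 4.46, 4.40 and 4.61 in labelled Zeb2-deficient CD172a+ cDCs, 4.61, 4.99 and 4.55 in control CD24+ cDCs, and 4.76, 4.22, 4.40 and 4.56 in control CD172a+ cDCs. The groups overlapped, and every group mean lay under the median of all genes. The means of both CD172a+ groups were 4.49 (SD 0.09 labelled Zeb2-deficient, SD 0.23 control), a difference of 0.01 (95% interval -0.29 to 0.30, limma adjusted p = 0.998). The CD24+ mean of 4.72 differed from that of control CD172a+ cDCs by 0.23 (95% interval -0.09 to 0.55, limma adjusted p = 0.536), and the labelled Zeb2-deficient cells differed from control CD24+ cDCs by -0.23 (95% interval -0.54 to 0.09).

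Slc27a4 encodes the transporter known from skin and intestine. Its probe set (10470751) read 5.65, 5.70, 5.76 and 5.67 in labelled Zeb2-deficient CD172a+ cDCs, 5.49, 5.75 and 5.70 in control CD24+ cDCs, and 5.70, 5.67, 6.00 and 5.77 in control CD172a+ cDCs. Here too the groups overlapped, and the group means lay within 0.14 of each other. The labelled Zeb2-deficient cells differed from control CD172a+ cDCs by -0.09 (95% interval -0.30 to 0.12) and from control CD24+ cDCs by 0.05 (95% interval -0.18 to 0.28). Control CD24+ differed from control CD172a+ cDCs by -0.14 (95% interval -0.37 to 0.09). These intervals leave room for small differences of either sign.

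Of the acyl-CoA synthetases, Acsl4 prefers arachidonic acid and related polyunsaturated chains, which it directs into phospholipids. Its probe set (10607089) read 7.34, 7.04, 8.04 and 8.10 in labelled Zeb2-deficient CD172a+ cDCs, 7.85, 8.19 and 8.33 in control CD24+ cDCs, and 7.58, 7.29, 7.84 and 8.17 in control CD172a+ cDCs. The groups overlapped, and within each group the arrays of set 2 were the high ones. The mean was 7.63 ± 0.52 in labelled Zeb2-deficient CD172a+ cDCs (SD, n = 4), 8.13 ± 0.25 in control CD24+ cDCs (SD, n = 3) and 7.72 ± 0.38 in control CD172a+ cDCs (SD, n = 4).

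In no comparison did Acsl4 pass the test. The labelled Zeb2-deficient cells differed from control CD172a+ cDCs by -0.09 (95% interval -0.66 to 0.48, limma adjusted p = 0.998). CD24+ cDCs differed from control CD172a+ cDCs by 0.40 (95% interval -0.21 to 1.02, limma adjusted p = 0.604). The intervals of Acsl4 were the widest among the 6 genes. The labelled Zeb2-deficient cells differed from control CD24+ cDCs by -0.50 (limma adjusted p = 0.409), and the difference was -0.39 when the array set was blocked (adjusted p = 0.0639).

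Acsl5 (probe set 10464045), known from the mitochondria and endoplasmic reticulum of intestinal and other cells, read 8.53, 8.43, 7.80 and 8.0 in labelled Zeb2-deficient CD172a+ cDCs. It read 8.28 on all 3 control CD24+ arrays, and 8.35, 8.36, 8.26 and 7.99 on the control CD172a+ arrays. Labelled Zeb2-deficient arrays thus lay on both sides of the other groups. The mean was 8.19 in labelled Zeb2-deficient CD172a+, 8.28 in control CD24+ and 8.24 in control CD172a+ cDCs. The differences were -0.05 (95% interval -0.40 to 0.30) between the CD172a+ groups, 0.04 (95% interval -0.33 to 0.42) for CD24+ against control CD172a+, and -0.09 (95% interval -0.47 to 0.28) for labelled Zeb2-deficient against CD24+.

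The deposited values of Acsl5 on the 3 CD24+ arrays were identical to the last digit, as were those of Slc27a2 on control CD172a+ replicates 1 to 3 and those of Slc27a4 on 3 arrays. Such ties were common in the table. All 3 CD24+ arrays shared a value in 213 genes (1.07%), at least 3 control CD172a+ arrays did so in 528 genes (2.65%), and at least 2 of the 11 arrays in 9880 genes (49.6%). The SD of 0.00 for Acsl5 in CD24+ cDCs and the SD of 0.09 for Slc27a2 in control CD172a+ cDCs rest on such ties, whose origin was not tested. The tests use a spread estimated from all groups and moderated over all genes, and the tied values enter that spread.

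**Figure D2:**
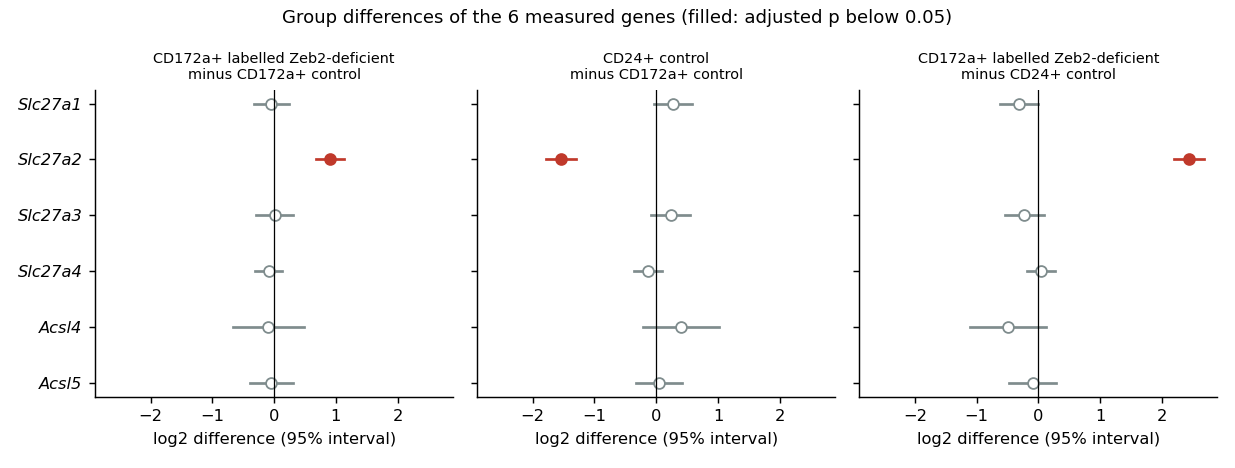
Log2 difference between groups (horizontal axis, first-named group minus second) for the 6 measured genes, with 95% intervals from limma. Filled red points have adjusted p below 0.05. Slc27a2 lies at 0.90, -1.54 and 2.44, and no point of the other 5 genes is filled.

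Over the 6 genes, the median difference was -0.05 for labelled Zeb2-deficient against control CD172a+ cDCs, where the median of all genes was 0.01. It was 0.14 for control CD24+ against control CD172a+ cDCs, against -0.02 for all genes. For labelled Zeb2-deficient CD172a+ against control CD24+ cDCs it was -0.16, against 0.04 for all genes. The middle of the family thus stayed near that of all genes in the CD172a+ comparison, and Slc27a2 alone lay far from it.

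Variation within groups was the main variation of Acsl4. Its set 2 arrays exceeded those of set 1 by 0.88 in labelled Zeb2-deficient CD172a+ cDCs, 0.42 in control CD24+ cDCs and 0.57 in control CD172a+ cDCs. Over all groups set 1 spanned 7.04 to 7.85 and set 2 spanned 7.84 to 8.33. A larger shift than its mean of 0.62 was seen in 9.02% of all genes, whose median absolute shift was 0.17. Acsl5 went the other way in both CD172a+ groups, by -0.58 in labelled Zeb2-deficient and -0.23 in control cells, with no shift in control CD24+ cDCs, and 31.8% of all genes shifted more than its mean of -0.27. The shifts of Slc27a2 were 0.15 in labelled Zeb2-deficient CD172a+, -0.09 in control CD24+ and -0.09 in control CD172a+ cDCs. These shifts of opposite sign largely cancel in its mean of -0.01. A larger mean shift was seen in 96.1% of genes, a share that does not describe the shifts within groups. Macrophage markers moved with Acsl4 between the sets, as given above, and their part in it was not tested.

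**Figure D3:**
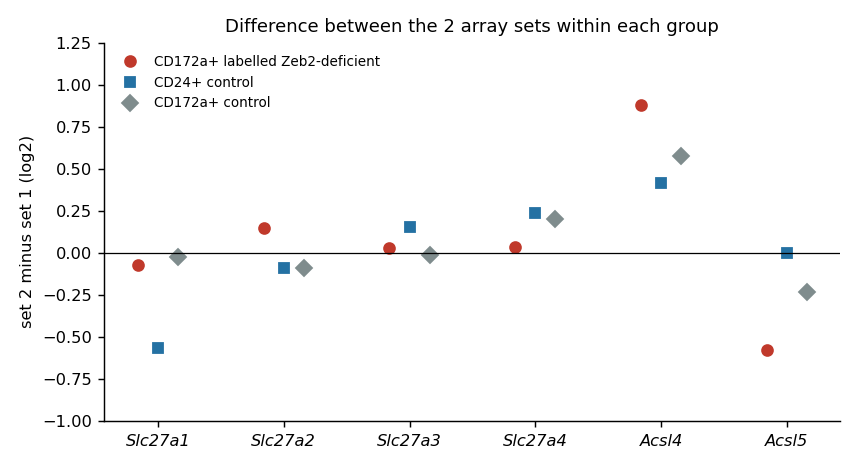
Difference between array sets 2 and 1 within each group (vertical axis, log2) for the 6 measured genes. Red circles are CD172a+ cDCs labelled Zeb2-deficient, blue squares control CD24+ cDCs and grey diamonds control CD172a+ cDCs. Acsl4 is above 0.4 in all 3 groups, Acsl5 is below 0 in both CD172a+ groups, and Slc27a2 stays within 0.15 of 0.

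The genes most like each of the 3 members with the widest range of group means were found by Pearson correlation over the 11 arrays, which share groups and array sets, and are given as a description. Nearest to Slc27a2 were Serpini1 (neuroserpin, a protease inhibitor; r = 0.973), Tnik (a kinase; r = 0.965) and Map3k8 (the kinase Tpl2; r = 0.963). Serpini1 averaged 6.16 in labelled Zeb2-deficient CD172a+, 4.65 in control CD24+ and 5.71 in control CD172a+ cDCs, while Map3k8 averaged 8.78 in labelled Zeb2-deficient CD172a+, 7.78 in control CD24+ and 8.49 in control CD172a+ cDCs. Tnik averaged 5.69 in labelled Zeb2-deficient CD172a+, 4.91 in control CD24+ and 5.42 in control CD172a+ cDCs. Serpini1, Tnik and Map3k8 had the order of groups that Slc27a2 had, which their choice by correlation with it makes likely. Nearest to Acsl4 were Gpr65 (a proton-sensing receptor; r = 0.971), Uchl5 (a deubiquitinase; r = 0.97) and Kif3a (a kinesin motor; r = 0.967). Nearest to Slc27a1 were Ptpn7 (a tyrosine phosphatase, r = 0.964), Itpripl1 (r = 0.96) and Mmp28 (a matrix metalloproteinase, r = 0.952). Slc27a1 read 6.31 on CD24+ replicate 1 and 5.54 to 5.81 on all other arrays, so its correlations may rest largely on that array.

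Genes acting around the family were read from 8 lists holding 119 genes, of which 115 were measured. The lists were chosen with earlier results of these data known. Their counts are therefore a description and no independent support, also where they exceed the share of all genes. Between labelled Zeb2-deficient and control CD172a+ cDCs, none of the 115 passed in limma, 2 had an unadjusted p below 0.05 (Phyh and Lpcat4), and the median difference was -0.05. The share of all genes with an unadjusted p below 0.05 was 3.88%. Blocking on the array set also gave a count of 0. Among the measured members and these 115 listed genes, Slc27a2 was thus the single gene called here. Between control CD24+ and control CD172a+ cDCs, 22 of 115 passed (19.1%, against 6.41% of all genes), 19 higher and 3 lower. Between labelled Zeb2-deficient CD172a+ and control CD24+ cDCs 22 passed (19.1%, against 7.17% of all genes), 3 higher and 19 lower. The counts per list below are to be read against these shares of all genes. Blocking on the array set gave 39 (33.9%) in the first of these comparisons, against 15.4% of all genes, and 41 (35.7%) in the second, against 18.3% of all genes.

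Fatty acid uptake and binding held the widest differences. Cd36, a scavenger receptor that takes up fatty acids and oxidised lipids, read 5.12, 4.67, 5.52 and 5.48 in labelled Zeb2-deficient CD172a+ cDCs, 10.10, 10.40 and 10.08 in control CD24+ cDCs, and 4.81, 4.85, 5.65 and 5.62 in control CD172a+ cDCs. It was 4.96 higher in control CD24+ than in control CD172a+ cDCs (SE 0.26, limma adjusted p = 8.24e-07), opposite in direction to Slc27a2. Fabp5, a cytosolic fatty acid binding protein, was lower in control CD24+ than in control CD172a+ cDCs by a difference of -2.26 (adjusted p = 3.9e-05). The other 10 genes of this list did not pass there, among them Lipa (lysosomal acid lipase, difference 0.64, adjusted p = 0.0965) and Dbi (the acyl-CoA binding protein, difference 0.83, adjusted p = 0.0712). Both passed once the array set was blocked (adjusted p = 0.0284 for Lipa and 0.000427 for Dbi), when 4 of the 12 were higher and 2 lower. Against control CD24+ cDCs, the labelled Zeb2-deficient cells were lower in Cd36, Lipa and Dbi and higher in Fabp5, 4 of 12 in all. Their Cd36 differed from that of control CD172a+ cDCs by -0.04 and their Fabp5 by -0.11, both with adjusted p = 0.998.

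Other enzymes that join fatty acids to coenzyme A or release them were called at about the share of all genes or below it. Of 10 other acyl-CoA synthetases, 1 was higher in control CD24+ than in control CD172a+ cDCs, Acsf3, the mitochondrial malonyl-CoA synthetase (0.42, adjusted p = 0.038). Without a block, none of these 10 passed in the comparisons of the labelled Zeb2-deficient cells, and none of 9 acyl-CoA thioesterases passed in any comparison. Once the array set was blocked, 2 of the 10 synthetases were higher in control CD24+ than in control CD172a+ cDCs, and 1 of the 9 thioesterases was lower. The same block gave 2 of the 10 synthetases and 1 of the 9 thioesterases lower in labelled Zeb2-deficient CD172a+ than in control CD24+ cDCs.

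Breakdown genes that passed without a block were higher in control CD24+ than in control CD172a+ cDCs. In mitochondrial beta-oxidation these were 2 of 18, Slc25a20, which carries acylcarnitines across the inner membrane (1.64, adjusted p = 0.00427), and Acadl, the long-chain acyl-CoA dehydrogenase (0.94, adjusted p = 0.00141). The median of the 18 genes was 0.27, against -0.02 over all genes. In peroxisomal beta-oxidation, in which Slc27a2 takes part, 2 of 11 passed, Acox3, an acyl-CoA oxidase (1.27, adjusted p = 0.0117), and Phyh, which begins the breakdown of branched phytanic acid (0.66, adjusted p = 0.0271). The median of these 11 genes was -0.06, so the peroxisomal list did not shift upward as a whole. Labelled Zeb2-deficient CD172a+ cDCs were lower than control CD24+ cDCs in 3 of 18 mitochondrial genes (Slc25a20, Acadl and Hadhb) and 1 of 11 peroxisomal genes (Acox3). Blocking on the array set gave 4 mitochondrial genes higher and 1 lower in control CD24+ than in control CD172a+ cDCs, and 10 of 18 lower in labelled Zeb2-deficient CD172a+ than in control CD24+ cDCs.

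Lipid storage and membrane lipid genes differed between the control subsets in 7 of 22 cases, 6 higher and 1 lower in CD24+ cDCs. The median of the 22 genes was -0.02, the same as over all genes. Plin2, which coats lipid droplets, read 6.28, 6.37, 6.55 and 6.43 in labelled Zeb2-deficient CD172a+ cDCs, 9.20, 8.68 and 8.01 in control CD24+ cDCs, and 6.74, 6.87, 6.76 and 6.36 in control CD172a+ cDCs. The CD24+ arrays lay apart from all others, 1.95 above control CD172a+ cDCs (adjusted p = 0.000322). Agpat3 and Agpat5, acyltransferases of phospholipid synthesis that use acyl-CoA, were higher by 1.6 and 1.35, and Lpcat4, another such enzyme, by 0.66. Against control CD24+ cDCs, labelled Zeb2-deficient CD172a+ cDCs were lower in 6 of 22 and higher in 1 of 22, with Plin2 at -2.22 (adjusted p = 0.000122). With the array set blocked, 8 of the 22 were higher and 3 lower in control CD24+ than in control CD172a+ cDCs.

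Fatty acid synthesis, elongation and desaturation differed in 7 of 20 genes between the control subsets, 6 higher and 1 lower in CD24+ cDCs. Fasn, the fatty acid synthase, was higher by 0.60 (adjusted p = 0.00677), Hacd2 and Hacd3, dehydratases of chain elongation, by 1.43 and 0.45, and Fads2, a desaturase, by 0.44. Labelled Zeb2-deficient CD172a+ cDCs were lower than control CD24+ cDCs in 5 of 20 and higher in 1 of 20, with Fasn at -0.62 and Hacd2 at -1.27. Among 13 transcriptional regulators of lipid metabolism, Rxra, the partner receptor of the PPAR and LXR factors, was higher in control CD24+ than in control CD172a+ cDCs by 0.55 (adjusted p = 0.034), and 12 did not pass. Blocking on the array set gave 2 higher and 2 lower of the 13. Rxra was lower in labelled Zeb2-deficient CD172a+ cDCs than in control CD24+ cDCs by a difference of -0.82 (adjusted p = 0.00305).

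**Figure D4:**
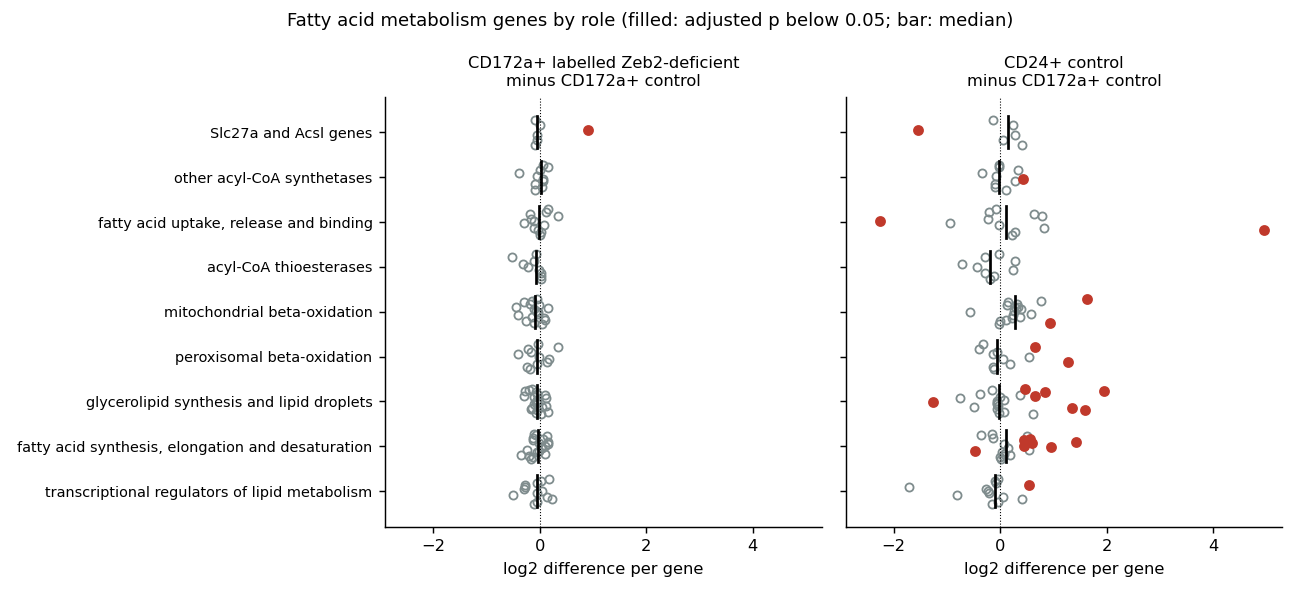
Log2 difference per gene (horizontal axis) for the Slc27a and Acsl genes and 8 lists of fatty acid genes, for labelled Zeb2-deficient against control CD172a+ cDCs (left) and control CD24+ against control CD172a+ cDCs (right). Each point is 1 gene, filled where adjusted p was below 0.05, and vertical bars are medians. The left panel holds 1 filled point, Slc27a2 at 0.90, and the right panel holds Cd36 at 4.96 and Slc27a2 at -1.54.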

How the data were processed

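Classical dendritic cells sorted from spleen were measured on 11 Affymetrix arrays. The deposited values are log2 signals per probe set, made by the authors with RMA (background subtraction, quantile normalization, probe summary), per the submitters' processing notes. Its version and the probe filters are not given in the sources used here. Of 30177 probe sets, 21789 carried 1 gene symbol in the platform annotation, giving 19938 genes, each represented by its highest-mean probe set. Group means were compared in 1 model over all arrays (limma 3.58.1, R 4.3.3, 8 residual degrees of freedom), two-sided, with Benjamini-Hochberg adjustment over all genes and a threshold of 0.05. The code of the fit was checked on simulated independent values with known differences. That simulation held no array sets and no tied values, so it says nothing about their effect. Array medians lay between 5.454 and 5.521. Precision is limited by the number of arrays.

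Same-numbered arrays of the CD172a+ groups deviated together (r 0.442 to 0.68 in 4 pairs), but other-numbered pairs within an array set did so as much (0.496 to 0.699), and pairs across sets gave -0.692 to -0.404. The correlation therefore follows the array set and shows no pairing by number beyond it. The labels give no pairing, and the replicate block is printed as an alternative. In both comparisons with CD24+ cDCs at least 1 of 3 pairs correlated below 0. The members and lists were chosen with earlier results of these data known. Named pathway genes were up to 4 per list with the smallest p among those that passed in any comparison. Alternatives were a filter on low values, blocks, 2 groups alone, other moderation, probe set and median choices, and each array left out. Plots and motif searches used Python 3.11.15 with matplotlib 3.10.9 and pandas 2.3.3.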

Additional observations from a re-analysis of the deposited data

Results flagged for a closer look

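Among 52 groups of 4 arrays tested (26 genes), 4 held an array far from the other 3, where chance gives about 1 in 20. Slc27a2 read 5.46 on control CD172a+ replicate 4, against 5.64 on the 3 others, which are tied. Zeb2 read 8.61 on the same array, against 8.23 to 8.26 on the 3 others. On control CD172a+ replicate 3, Hadhb, a subunit of the mitochondrial trifunctional protein, read 7.10, against 7.57 to 7.66 on the 3 others, and Phyh read 7.29, against 7.68 to 7.74. Without control CD172a+ replicate 4, the Slc27a2 difference between labelled Zeb2-deficient and control CD172a+ cDCs was 0.86 (limma adjusted p = 0.0335).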

How the results depend on the processing

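The direction of Slc27a2 held in all 3 comparisons under every alternative run, and its calls held in all but 1 of those that gave a test. Fitted on the labelled Zeb2-deficient and control CD172a+ arrays alone, which leaves fewer arrays to estimate the spread, 0 members and 5 genes in all were called. Leaving out 1 array in turn gave 0.84 to 0.98 (adjusted p 0.00613 to 0.0464) for Slc27a2 in that comparison. Of 375 alternative values, 357 kept their direction and call or stayed within the spread, 14 changed sign, 3 moved and 1 lost its call. Sign changes were in differences that never passed. Leaving out 1 array, Slc27a3 ranged from -0.082 to 0.099, Acsl4 from -0.25 to 0.102 and Acsl5 from -0.159 to 0.084 (labelled Zeb2-deficient against control CD172a+). Acsl5 ranged from -0.039 to 0.085 (control CD24+ against control CD172a+). Slc27a4 ranged from -0.032 to 0.1 and Acsl5 from -0.204 to 0.04 (labelled Zeb2-deficient against control CD24+). With arrays shifted to the same median, Slc27a3 was -0.006 between the CD172a+ groups and Slc27a4 -0.003 against control CD24+. With the replicate block, Acsl5 was -0.039 between the control subsets, and the block changed no call of a member. Over all genes, calls numbered 29, 3080 and 3641 after blocking on the array set and 26, 762 and 1164 with the replicate block, against 10, 1278 and 1429. The replicate block joins CD24+ replicate 2, of array set 2, with replicate 2 of both CD172a+ groups, of array set 1. The filter on low values removed Slc27a3. Signals near background limit what Slc27a3 and CD24+ Slc27a2 can show.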
